A study of Mus musculus with 9 samples.

Results

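A set of 10 chaperone genes was followed across the germinal center B cell populations of this study, 4 encoding mitochondrial proteins (Hspd1, Hspe1, Hspa9 and Trap1) and 6 encoding cytosolic ones (Hspa8, Hspa4, Hsp90aa1, Hsp90ab1, Hsph1 and Dnaja1). They were chosen by name: each is the single entry of the deposited gene tables that carries that symbol, so the set is 10 of the 23700 entries in each table. All 10 were quantified in all 9 libraries. The values are FPKM, sequenced fragments scaled to transcript length and library size, from RNA of sorted mouse spleen cells.

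The 3 populations had 3 libraries each. Foxo1-deficient cells were Foxo1(f/f) and were sorted as whole germinal center B cells with no zone gate. The dark zone (DZ) and light zone (LZ) cells were Foxo1(+/+), DZ cells being CD86lo CXCR4hi and LZ cells CD86hi CXCR4lo. Both genotypes carried 1 knock-in copy of a tamoxifen-activated Cre, ERT2cre(KI/+), and of an antigen receptor gene, B1-8hi(KI/+). Both had been transferred together in equal parts into C57BL/6 recipients, were immunized with NP-CGG in alum on day 0, received oral tamoxifen from day 7 to day 9 and were sorted on day 12 at about 10000 cells per library. Genotype and gate change together between the Foxo1-deficient libraries and either zone, and the effects of the 2 cannot be told apart. The labels describe the Foxo1(f/f) donor cells as CD45.1/2 while giving a CD45.2-negative gate for them, which was not settled here, and the labels give no ages. Nothing in the labels ties replicates to different mice, so the tests rest on a spread among libraries that could be technical. In bulk samples, fewer cells of a type and less RNA per cell cannot be told apart.

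Chaperones bind proteins that are not yet folded and let them reach or regain their shape. In the cytosol, Hsp70 proteins take up new chains with the help of J-domain proteins, exchange factors of the Hsp110 family reset them, and Hsp90 proteins complete selected clients such as kinases and receptors. In mitochondria, an Hsp70 pulls imported chains through the inner membrane and the Hsp60 chamber with its Hsp10 lid folds them. Light zone B cells receive help from T follicular helper cells and selected ones raise the growth regulator Myc, whereas dark zone B cells divide and mutate their antigen receptor genes, and Foxo1 is a transcription factor required for the dark zone state.

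Hspd1, the Hsp60 subunit, and Hspe1, its Hsp10 lid, are transcribed in opposite directions from neighbouring starts, and with Hsph1, an Hsp110 exchange factor, they were the members whose RefSeq promoter windows held a heat shock element. The windows run from 250 bases before to 50 bases after each annotated start (build GRCm38.p6), and 6 of the 10 members had one, in 10 windows. No window was available for Hspa8, Hspa9, Hsp90aa1 and Hsp90ab1, so these were not searched. The element searched was 3 alternating units, GAANNTTCNNGAA, on both strands. It was found in 3 of those 6 members, with Hspd1 and Hspe1 sharing the same bases, and in 179 of the 27025 genes with a window, or 0.662%, which is 198 of all 32851 windows, or 0.603%. The 30 bases around the matches are shown because they set Hspd1, Hspe1 and Hsph1 side by side, with the matched letters in capitals. The pair's capitals are 2 overlapping matches that together span 18 bases, 71 bases before the start of Hspe1 and 126 bases from 1 of the 2 annotated starts of Hspd1, within the 215 bases between those starts. The window of the other Hspd1 start held no such match. The Hsph1 match begins 36 bases after one of its starts.
Hspd1-Hspe1, chr1:55088053-55088082 (+): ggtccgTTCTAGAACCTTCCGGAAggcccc
Hsph1, chr5:149636287-149636316 (-): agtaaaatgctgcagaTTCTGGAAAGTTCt
The windows of Trap1, Hspa4 and Dnaja1 held no such letters. The E-box CACGTG, a palindrome, occurred in windows of 2 members, Hspd1 and Hsph1, and in 8.09% of the genes with a window and in 2349 of all windows, or 7.15%. In Hspd1 it lay in the window of the other start. A match of letters is a description of the window and not evidence of binding.

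In the mm9 coordinates of the deposited tables, Hspd1 spans chr1:55134677-55144776 and Hspe1 chr1:55144991-55148161. Trap1 lies at chr16:4039976-4077810, Hspa8 at chr9:40609355-40613282, Hspa4 at chr11:53073315-53113981, Hsp90aa1 at chr12:111929245-111934605, Hsp90ab1 at chr17:45704726-45710210, Hsph1 at chr5:150419419-150438890 and Dnaja1 at chr4:40669500-40684184. Hspa9 is on chromosome 18. RefSeq names 5 near copies of Hspd1, 7 of Hspe1, 1 of Hspa9 and 1 of Dnaja1, none of them an entry of the tables, so the values of these 4 genes are uncertain to the extent that the counting placed reads from copies on them. Only copies named after a member were looked for. Copies under other names, of these or the other members, would have been missed.

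The libraries were of similar depth, with about 1963427 to 2930741 fragments per library as implied by the deposited confidence intervals. Foxo1, the gene deleted, was at 3.01, 1.79 and 0.808 FPKM in the Foxo1-deficient libraries, against 24.5, 19.5 and 19.1 FPKM in DZ and 14.8, 18.7 and 22.1 FPKM in LZ. All 12 germinal center B cell genes listed, among them Pax5 and Bcl6, were above 0 in every library. Of 9 T cell markers, 5 to 7 were at 0 in each library, with Cd3e, Cd3g and Cd4 listed at 0 in all of them, and the list summed to 15.2 to 25.5 FPKM in Foxo1-deficient, 11.4 to 20.1 FPKM in DZ and 27.1 to 28.6 FPKM in LZ libraries. Most of that sum was Lck, a kinase, at 14.6, 17.7 and 24.8 FPKM in Foxo1-deficient, 12.9, 10.8 and 19.9 FPKM in DZ and 27.4, 26.7 and 26.2 FPKM in LZ libraries, so its LZ libraries were above all others. Across 13 macrophage, dendritic cell and neutrophil markers the summed level was 165 to 339 FPKM in the Foxo1-deficient libraries, with 2 or 3 markers at 0, against 0.655 to 5.33 FPKM in DZ with 8 to 12 at 0 and 2.14 to 6.63 FPKM in LZ with 10 to 12 at 0. Across 8 erythroid and platelet markers the sums were 166 to 544 FPKM in Foxo1-deficient, 12.9 to 21.7 FPKM in DZ and 21.9 to 44.4 FPKM in LZ libraries. These markers moved with the groups, and their part in the results below was not tested.

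**Figure D1:**
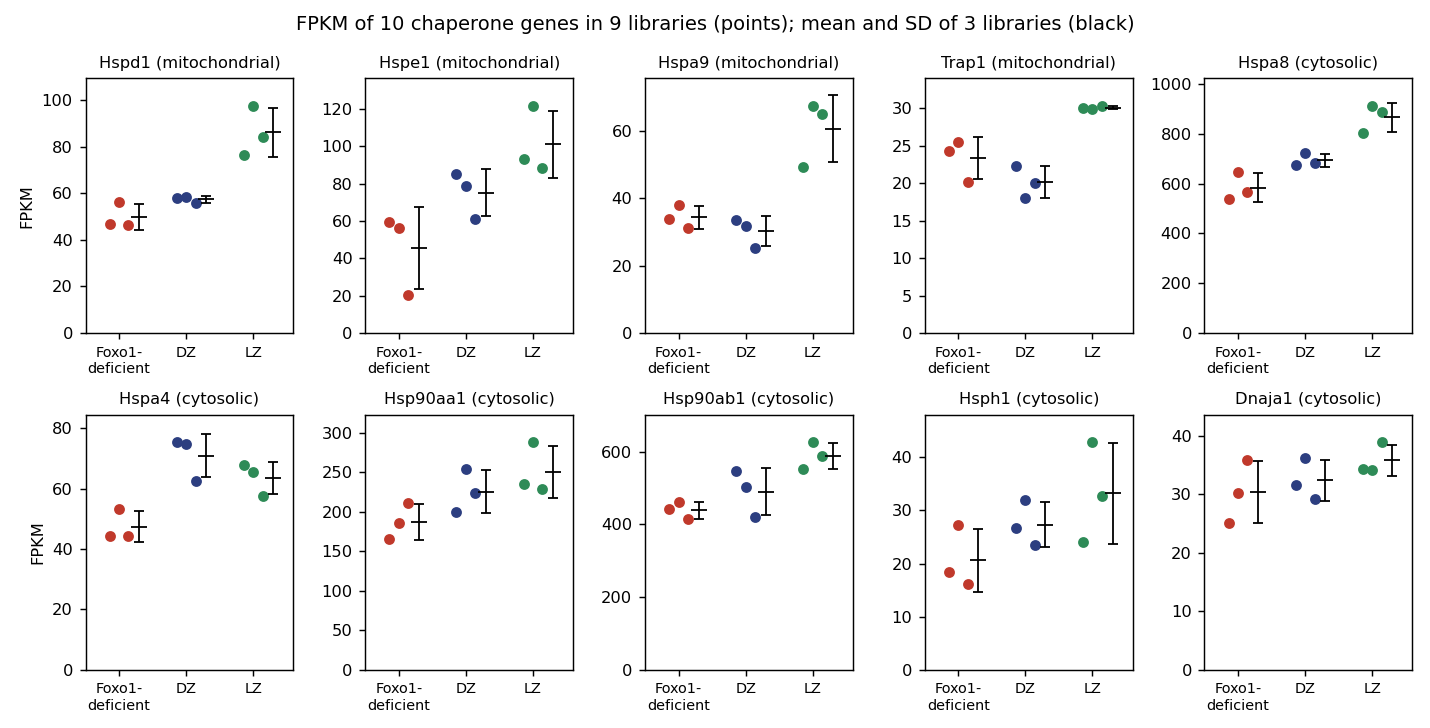
FPKM of the 10 chaperone genes in each library, 1 panel per gene on its own linear axis from 0, with points for libraries and black marks for the mean and SD of 3 libraries. The 4 mitochondrial genes have their LZ libraries above all Foxo1-deficient and DZ libraries, whereas Dnaja1, Hsph1, Hspa4 and Hsp90aa1 have overlapping DZ and LZ libraries.

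The members differed widely in level, and all were well expressed. Hspa8, the constitutive cytosolic Hsp70, averaged 715 FPKM over the 9 libraries, above 99.3% of the 10004 genes tested, and Trap1, the mitochondrial Hsp90 relative, averaged 24.5 FPKM, above 83.4% of them. In each population Hspa8 was highest, followed by Hsp90ab1 and then Hsp90aa1, with ranges that did not overlap. Below those, Foxo1-deficient libraries had no separated neighbours: Hspd1, Hspa4, Hspe1, Hspa9, Dnaja1, Trap1 and Hsph1 followed one another from 49.9 to 20.6 FPKM with overlapping ranges. In DZ libraries Hspe1 and Hspa4 overlapped, Hspd1 stood below Hspa4 and above Dnaja1 without overlap, Dnaja1, Hspa9 and Hsph1 overlapped in turn, and Trap1 was lowest. In LZ libraries Hspe1 and Hspd1 overlapped, Hspa4 and Hspa9 overlapped below them, and Dnaja1, Hsph1 and Trap1 overlapped at the bottom. Hspa9 thus ranked with Hspa4 in LZ but with Dnaja1 in DZ.

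Hspd1, which builds the Hsp60 folding chamber, was at 46.7, 56.4 and 46.5 FPKM in Foxo1-deficient libraries, 58.1, 58.3 and 55.7 FPKM in DZ and 76.6, 97.6 and 84.3 FPKM in LZ. Every LZ library lay above every other library. Hspd1 fell in Foxo1-deficient cells relative to LZ, with means of 49.9 ± 5.68 and 86.2 ± 10.6 FPKM (SD, n = 3 each), a log2 change of -0.78 with a standard error of 0.149 and an adjusted p of 0.0294 by limma over the 10004 genes tested. Between DZ, at 57.4 ± 1.42 FPKM (SD, n = 3), and LZ the log2 difference was -0.57 with limma's adjusted p at 0.0903, and at 0.0315 with voom weights. Foxo1-deficient and DZ libraries overlapped, with a log2 difference of -0.20 and limma's adjusted p at 0.547. The call against LZ was lost when any library other than DZ replicate 3 was left out. The adjusted p was then 0.0944, 0.0540 and 0.112 without Foxo1-deficient replicates 1, 2 and 3, it was 0.0564 and 0.0593 without DZ replicates 1 and 2, and it was 0.0546, 0.1002 and 0.0970 without LZ replicates 1, 2 and 3.

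Hspe1, the lid of that chamber, was at 59.5, 56.5 and 20.1 FPKM in Foxo1-deficient libraries, 85.4, 78.8 and 61.2 FPKM in DZ and 93.3, 121.8 and 88.4 FPKM in LZ. The 3 groups did not overlap, and Foxo1-deficient replicate 3 was far below its own group. The mean was 45.4 ± 21.9 FPKM in Foxo1-deficient, 75.1 ± 12.5 FPKM in DZ and 101.2 ± 18.0 FPKM in LZ libraries (SD, n = 3 each). The log2 difference between Foxo1-deficient and LZ was -1.27, the most negative among the members, yet its standard error was 0.343 and limma's adjusted p was 0.112. Without Foxo1-deficient replicate 3 the difference was -0.78, with an adjusted p of 0.141. Hspe1 was the least deeply read member, with 42.8 to 283 implied fragments per library.

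The ratio of the 2 partners stood apart in 1 library. Hspd1 divided by Hspe1 was 0.785, 0.999 and 2.31 in Foxo1-deficient libraries, 0.681, 0.739 and 0.911 in DZ and 0.821, 0.802 and 0.953 in LZ. The ratio lay between 0.681 and 0.999 in the other 8 libraries, and 2.31 in Foxo1-deficient replicate 3 came from its low Hspe1 value. That library also had the fewest entries above 0, at 11056. Its summed macrophage, dendritic cell and neutrophil markers, at 339 FPKM, and erythroid and platelet markers, at 544 FPKM, were the highest. The part of these in the ratio was not tested.

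Hspa9, the mitochondrial Hsp70 that drives import and folding, was at 33.9, 37.9 and 31.1 FPKM in Foxo1-deficient libraries, 33.6, 31.8 and 25.2 FPKM in DZ and 49.2, 67.5 and 65.1 FPKM in LZ. The LZ libraries stood apart, and the Foxo1-deficient and DZ libraries overlapped. Hspa9 fell in DZ relative to LZ, to 0.498 times the LZ mean, with a log2 change of -0.98, a standard error of 0.182 and limma's adjusted p at 0.0239. Foxo1-deficient cells, at 34.3 ± 3.41 FPKM (SD, n = 3), differed from LZ by -0.79 on the log2 scale with limma's adjusted p at 0.0597, and from DZ by 0.19 with limma's adjusted p at 0.661. The difference from LZ passed the threshold after quantile normalization, median centring and with voom weights, at 0.0432, 0.0248 and 0.0277. The DZ call was lost without DZ replicates 1, 2 and 3 in turn, where the adjusted p was 0.0555, 0.0710 and 0.0773, and without LZ replicates 2 and 3, where it was 0.0922 and 0.0886. It was also lost in a fit of those 2 groups alone, at 0.0556.

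Trap1, a mitochondrial Hsp90 relative, was at 24.3, 25.5 and 20.1 FPKM in Foxo1-deficient libraries, 22.3, 18.0 and 20.0 FPKM in DZ and 29.98, 29.9 and 30.3 FPKM in LZ. The LZ libraries were nearly equal and lay above all the others. The log2 differences were -0.36 for Foxo1-deficient against LZ and -0.56 for DZ against LZ, with limma's adjusted p at 0.384 and 0.141.

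Hspa8, the constitutive Hsp70 of the cytosol, was at 538, 648 and 565 FPKM in Foxo1-deficient libraries, 677, 725 and 682 FPKM in DZ and 802, 913 and 887 FPKM in LZ. No pair of groups overlapped. Hspa8 fell in Foxo1-deficient cells relative to LZ, to 0.673 times the LZ mean, with a log2 change of -0.57, a standard error of 0.118 and limma's adjusted p at 0.0391. The differences were -0.25 between Foxo1-deficient and DZ and -0.32 between DZ and LZ, with limma's adjusted p at 0.317 and 0.225. The call was lost under a pseudocount of 0.1 at an adjusted p of 0.0503, with no filter at 0.0763, after quantile normalization at 0.125 and in a fit of those 2 groups alone at 0.0827. It was also lost without any library other than DZ replicate 3. The adjusted p was 0.114, 0.0655 and 0.124 without Foxo1-deficient replicates 1, 2 and 3, it was 0.0725 and 0.0656 without DZ replicates 1 and 2, and it was 0.0880, 0.131 and 0.138 without LZ replicates 1, 2 and 3.

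Hspa4, an Hsp110 family exchange factor for Hsp70, was at 44.3, 53.3 and 44.4 FPKM in Foxo1-deficient libraries, 75.4, 74.96 and 62.7 FPKM in DZ and 67.9, 65.5 and 57.8 FPKM in LZ. It was the one member whose DZ mean was above its LZ mean, by 0.15 on the log2 scale, but those libraries overlapped and limma's adjusted p was 0.705. Both zones lay above all Foxo1-deficient libraries. The log2 difference between Foxo1-deficient, at 47.3 ± 5.14 FPKM, and DZ, at 71.0 ± 7.18 FPKM (SD, n = 3 each), was -0.58 with limma's adjusted p at 0.0718. It passed the threshold after quantile normalization, median centring and with voom weights, at 0.0276, 0.0122 and 0.0237.

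Hsph1, the other Hsp110 member, was at 18.4, 27.2 and 16.1 FPKM in Foxo1-deficient libraries, 26.6, 31.9 and 23.4 FPKM in DZ and 24.0, 42.8 and 32.8 FPKM in LZ, and all pairs of groups overlapped. Hsp90aa1, the Hsp90 form that also responds to stress, was at 166, 186 and 211 FPKM in Foxo1-deficient libraries, 199, 254 and 224 FPKM in DZ and 235, 288 and 229 FPKM in LZ. Foxo1-deficient libraries lay below every LZ library, while DZ overlapped with both. Hsp90ab1, the constitutive Hsp90 form, was at 441, 461 and 413 FPKM in Foxo1-deficient libraries, 546, 503 and 420 FPKM in DZ and 551, 625 and 587 FPKM in LZ. Its LZ libraries lay above all others, and Foxo1-deficient and DZ libraries overlapped. The constitutive form was 1.88 to 2.74 times the stress-responsive form in every library. Dnaja1, a J-domain partner of Hsp70, was at 25.1, 30.1 and 35.8 FPKM in Foxo1-deficient libraries, 31.6, 36.2 and 29.2 FPKM in DZ and 34.4, 34.1 and 38.8 FPKM in LZ, and no group stood apart. None of these 4 passed the threshold in any comparison by limma, their smallest adjusted p being 0.161 for Hsp90ab1 in Foxo1-deficient against LZ, a difference of -0.42 that passed at 0.0434 after median centring.

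**Figure D2:**
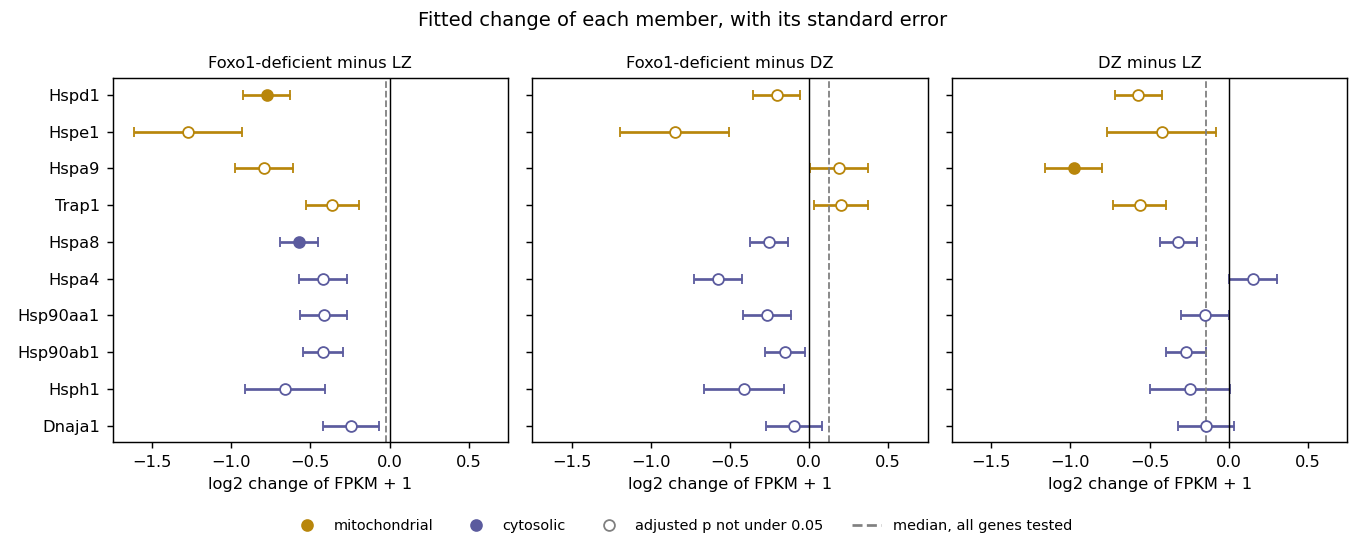
Log2 change of each of the 10 members in the 3 comparisons, with standard errors from limma, filled points for adjusted p under 0.05 and a dashed line at the median of all genes tested. In Foxo1-deficient against LZ all 10 lie below 0, and in DZ against LZ Hspa9 is the lowest at -0.98 and Hspa4 is above 0 at 0.15.

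Counted together, members were low in Foxo1-deficient cells relative to LZ. All 10 log2 changes were negative, 2 members fell (Hspd1 and Hspa8) and none rose, where 0.87% of all genes tested fell and 0.69% rose. In 8 members every Foxo1-deficient library was below every LZ library, where 9.37% of all genes were. The median change was -0.50 for the members and -0.02 for all genes. In Foxo1-deficient against DZ none of the 10 passed by limma, with 2 at an unadjusted p under 0.05, and 0 to 1 passed under the other settings, where 0.75% of all genes fell and 2.1% rose. Here 8 of 10 were negative, 3 members (Hspe1, Hspa8 and Hspa4) had no overlap and lay lower, where 5.78% of all genes did, and the median was -0.23 against 0.12 for all genes. In DZ against LZ 1 member fell (Hspa9), where 1.38% of all genes fell and 0.56% rose. There 9 of 10 were negative and 6 lay lower with no overlap, namely the 4 mitochondrial members, Hspa8 and Hsp90ab1, where 17.1% of all genes did. The median was -0.29 for the members and -0.15 for all genes. The comparisons share libraries in pairs, so their values are not independent. Members were chosen with earlier results known, and each averaged above at least 83.4% of the genes tested. The shares over all genes are thus not a matched background.

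The scaling of the libraries matters for DZ. The summed FPKM of all genes was 244707 in DZ replicate 3, against 294901 to 342529 in the other libraries. The members made up 0.437 to 0.510% of that sum in Foxo1-deficient, 0.595 to 0.655% in DZ and 0.616 to 0.683% in LZ libraries. As such a share, DZ and LZ libraries overlapped. The median of all genes in DZ against LZ was -0.15, and 28.9% of all called genes rose, whereas after centring each library on its median these were 0.04 and 56.8%, and after quantile normalization 0.01 and 42.8%. In Foxo1-deficient against DZ the share that rose was 73.7%, against 44.6% after median centring and 60.8% after quantile normalization. After median centring Hspa9 was at -0.79, Hspd1 at -0.38 and Trap1 at -0.37 in DZ against LZ, while Hsp90aa1 and Dnaja1 turned to 0.04 each and the median of all 10 members was -0.10. In Foxo1-deficient against DZ the median of the 10 members after median centring was -0.41, Hspa9 was at 0.01 and Trap1 at 0.02, and 7 members had an unadjusted p under 0.05.

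The balance between compartments was described per library as the mean log2(FPKM + 1) of the 4 mitochondrial members minus that of the 6 cytosolic members. It was -1.30, -1.46 and -1.88 in Foxo1-deficient libraries, -1.54, -1.79 and -1.69 in DZ and -1.23, -1.17 and -1.21 in LZ. All LZ libraries were above the other 6, and Foxo1-deficient and DZ libraries overlapped. The group means were -1.55 ± 0.302 in Foxo1-deficient, -1.67 ± 0.125 in DZ and -1.20 ± 0.0289 in LZ (SD, n = 3 each). No test is given, because the members were chosen with earlier results known. Without Hspe1 the balance was -1.50, -1.60 and -1.74 in Foxo1-deficient, -1.86, -2.11 and -1.93 in DZ and -1.46, -1.43 and -1.37 in LZ libraries. In that form every DZ library was below every Foxo1-deficient library, and LZ stayed above both.

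**Figure D3:**
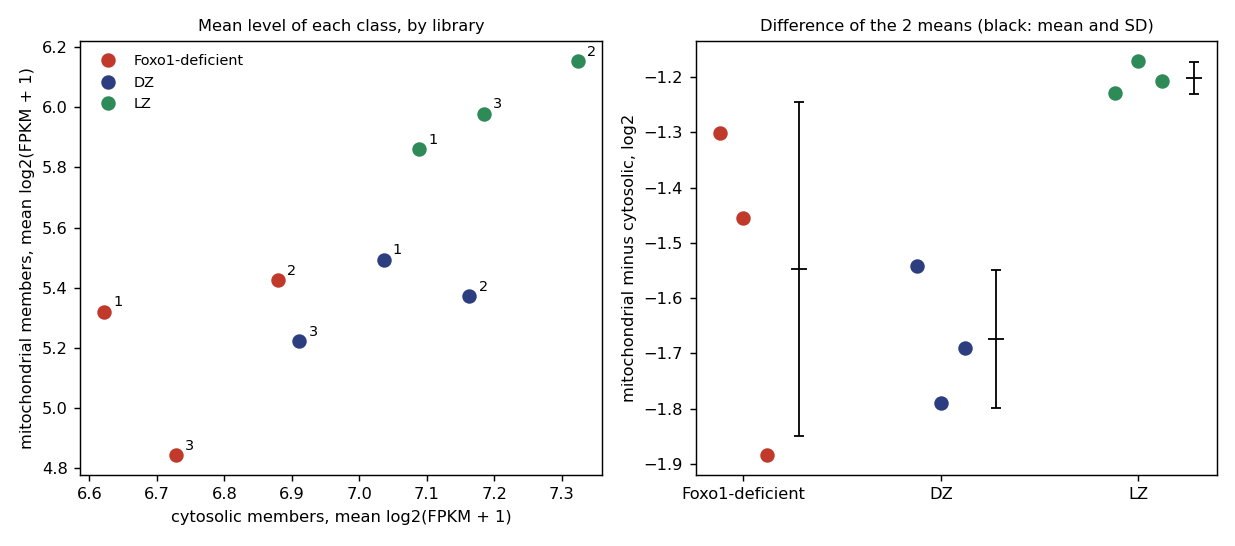
Left, mean log2(FPKM + 1) of the 4 mitochondrial members against that of the 6 cytosolic members, 1 point per library numbered by replicate. Right, the difference between these means by group, with black marks for the mean and SD of 3 libraries. The difference is -1.23 to -1.17 in LZ libraries and lower in all Foxo1-deficient and DZ libraries.

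The summed level of each compartment was lower in every Foxo1-deficient library than in any LZ library. The mitochondrial members summed to 118 to 176 FPKM in Foxo1-deficient, 162 to 199 FPKM in DZ and 249 to 317 FPKM in LZ libraries. The cytosolic members summed to 1233 to 1405 FPKM in Foxo1-deficient, 1442 to 1625 FPKM in DZ and 1714 to 1969 FPKM in LZ libraries, with no overlap between groups. The median log2 change against LZ in Foxo1-deficient cells was -0.78 for the mitochondrial and -0.42 for the cytosolic members, and in DZ it was -0.57 and -0.20. Against DZ, Foxo1-deficient cells had medians of -0.01 for the mitochondrial and -0.26 for the cytosolic members. After median centring the medians in DZ against LZ were -0.38 for the mitochondrial and -0.01 for the cytosolic members, and in Foxo1-deficient against DZ they were -0.19 and -0.44. Ratios of single genes differed too, in ways that depended on the genes taken. Hspa8 divided by Hspa9 was 15.9, 17.1 and 18.2 in Foxo1-deficient, 20.2, 22.8 and 27.1 in DZ and 16.3, 13.5 and 13.6 in LZ libraries, and was highest in all DZ libraries. Hspd1 divided by Hspa4 was 1.05, 1.06 and 1.05 in Foxo1-deficient, 0.771, 0.777 and 0.889 in DZ and 1.13, 1.49 and 1.46 in LZ libraries, with no overlap between groups. Hspa4 was the one member with a DZ mean above its LZ mean. Hspd1 divided by Hsp90aa1 was 0.221 to 0.304 in Foxo1-deficient, 0.230 to 0.292 in DZ and 0.326 to 0.368 in LZ libraries. There the Foxo1-deficient and DZ libraries overlapped.

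The wider chaperone system was read from 5 lists of textbook members. Of 19 mitochondrial partners, import components and proteases, none passed by limma in any comparison, with median log2 changes of -0.25 in Foxo1-deficient against LZ, 0.08 in Foxo1-deficient against DZ and -0.23 in DZ against LZ. Tomm22, an outer membrane import receptor, averaged 58.5 ± 8.29 FPKM in Foxo1-deficient, 47.2 ± 0.676 FPKM in DZ and 52.5 ± 11.7 FPKM in LZ libraries, and Timm23, the inner membrane channel, averaged 39.9 ± 10.8 FPKM in Foxo1-deficient, 48.2 ± 8.82 FPKM in DZ and 60.1 ± 21.5 FPKM in LZ libraries (SD, n = 3 each). Grpel1, an exchange factor of Hspa9, singled out after its values were seen, averaged 2.85 ± 1.99 FPKM in Foxo1-deficient, 9.03 ± 3.21 FPKM in DZ and 9.39 ± 2.84 FPKM in LZ libraries, with limma's adjusted p at 0.0859 against DZ and 0.0941 against LZ. Its relative Grpel2 was not lower, at 8.29, 7.50 and 9.37 FPKM in Foxo1-deficient, 7.23, 7.70 and 5.23 FPKM in DZ and 7.41, 8.54 and 7.89 FPKM in LZ libraries. Of 26 Hsp70 and Hsp90 cochaperones, none passed by limma, with medians of -0.29 in Foxo1-deficient against LZ, -0.23 in Foxo1-deficient against DZ and -0.12 in DZ against LZ, and 23 of 26 were negative in Foxo1-deficient against LZ. Ptges3, the Hsp90 cochaperone p23, averaged 57.8 ± 6.00 FPKM in Foxo1-deficient, 50.4 ± 4.32 FPKM in DZ and 68.2 ± 7.96 FPKM in LZ libraries. Dnajc9, a J-domain protein that handles histones, averaged 52.6 ± 10.3 FPKM in Foxo1-deficient, 73.1 ± 7.55 FPKM in DZ and 60.7 ± 2.57 FPKM in LZ libraries.

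Of 13 tested genes of the CCT chaperonin, which folds actin and tubulin, and of prefoldin, which delivers chains to it, 1 rose in DZ relative to LZ and none changed in the other comparisons. That gene was Vbp1, a prefoldin subunit, at 45.2 ± 2.83 FPKM in DZ and 20.4 ± 4.996 FPKM in LZ (SD, n = 3 each), with a log2 change of 1.13 and limma's adjusted p at 0.0436. Cct5, a chaperonin subunit, averaged 107 ± 13.3 FPKM in Foxo1-deficient, 100.4 ± 8.56 FPKM in DZ and 129 ± 10.2 FPKM in LZ libraries. Pfdn5, another prefoldin subunit, averaged 110.4 ± 12.9 FPKM in Foxo1-deficient, 94.1 ± 20.2 FPKM in DZ and 124 ± 53.8 FPKM in LZ libraries. The list median was -0.27 in Foxo1-deficient against LZ, -0.10 in Foxo1-deficient against DZ and -0.13 in DZ against LZ.

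In the list of heat-inducible chaperones and heat shock factors, Hspa1a, Hspa1b and Hspb1 were at or close to 0. Dnajb1, a heat-inducible J-domain protein of the same list, was not. It was at 10.9, 11.8 and 7.65 FPKM in Foxo1-deficient libraries, 15.0, 18.8 and 12.3 FPKM in DZ and 14.9, 12.4 and 13.6 FPKM in LZ. Of 18 genes in that list, 10 passed the filter on low values and none changed by limma. Hspa1a was at most 0.841 FPKM and Hspa1b at most 1.32 FPKM in any library, and as near-identical copies their separate values are uncertain. Hspb1, the small heat shock protein, was listed at 0 in 8 libraries and at 2.46 FPKM in LZ replicate 3. Ubb, a polyubiquitin gene, was the highest of the list, at 381 ± 5.02 FPKM in Foxo1-deficient, 397 ± 64.0 FPKM in DZ and 370 ± 21.1 FPKM in LZ libraries (SD, n = 3 each). Among 12 tested genes of early stress and tissue dissociation, Hmox1 rose in Foxo1-deficient libraries relative to LZ by 2.52 on the log2 scale with limma's adjusted p at 0.0282. Hmox1 was at 4.43, 3.33 and 8.79 FPKM in Foxo1-deficient libraries and at most 0.216 FPKM in LZ, near the floor. The macrophage and erythroid marker sums were also high in the Foxo1-deficient libraries, and their part in the Hmox1 values was not tested. Egr1 fell in DZ relative to LZ, with a log2 change of -1.28 and limma's adjusted p at 0.0456. The summed level of this stress list was 109 to 129 FPKM in Foxo1-deficient, 65.8 to 97.3 FPKM in DZ and 122 to 145 FPKM in LZ libraries. Between the zones it moved with the members. In Foxo1-deficient against DZ it went the other way, with a list median of 0.75 and a member median of -0.23. There 2 of the 12 tested genes of the list were negative. The part of this list in the member values was not tested.

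The endoplasmic reticulum relatives followed another order than the cytosolic members. Hsp90b1, the Hsp90 of that compartment, averaged 117 ± 25.0 FPKM in Foxo1-deficient, 50.9 ± 13.2 FPKM in DZ and 90.2 ± 6.09 FPKM in LZ libraries (SD, n = 3 each), and it rose in Foxo1-deficient cells relative to DZ by 1.19 on the log2 scale with limma's adjusted p at 0.0148. Hspa5, its Hsp70, averaged 106 ± 20.0 FPKM in Foxo1-deficient, 62.5 ± 14.5 FPKM in DZ and 133 ± 5.98 FPKM in LZ libraries, and it fell in DZ relative to LZ with a log2 change of -1.10 and limma's adjusted p at 0.0179. Of the 7 genes, 1 rose and none fell in Foxo1-deficient against DZ, where the median was 0.61, and 1 fell in DZ against LZ, where it was -0.53. In Foxo1-deficient against LZ none passed by limma and the median was -0.11. Without DZ replicate 1, DZ replicate 3 or any single LZ replicate, 0 genes of the 5 lists passed in DZ against LZ by limma, so the calls of Hspa5 and Vbp1 were both lost. The plasma cell gene Igj rose in Foxo1-deficient cells relative to LZ by 1.49 with limma's adjusted p at 0.00898, and in DZ relative to LZ by 1.16 at 0.0283. Of 4 tested plasma cell genes, 1 rose and none fell in each of these comparisons, with medians of 0.16 and 0.02. Irf4 went the other way between the zones, at 1.71 to 5.52 FPKM in DZ and 8.66 to 11.6 FPKM in LZ libraries. The part of plasma cell genes in the values above was not tested.

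**Figure D4:**
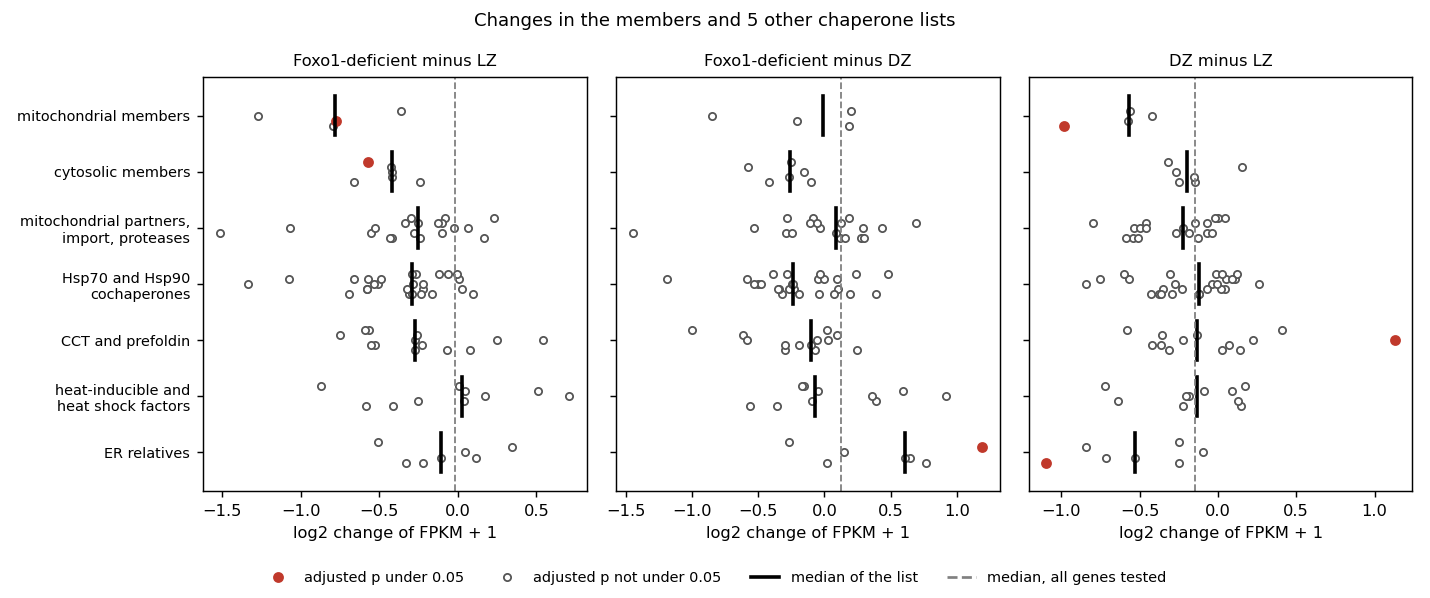
Log2 change of each tested gene in the 2 member groups and the 5 other chaperone lists, 1 panel per comparison, with filled red points for adjusted p under 0.05, open points for the rest, a black bar for the list median and a dashed line for the median of all genes tested. The mitochondrial members have the lowest list median in Foxo1-deficient against LZ at -0.78, and the endoplasmic reticulum relatives the highest in Foxo1-deficient against DZ at 0.61.

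Likeness of pattern was measured as the root mean square difference of log2(FPKM + 1) over the 9 libraries after centring each gene on its mean, among 3988 genes with a mean of at least 10 FPKM. The genes nearest to Hspd1 over all 9 libraries were Eif4a1 at 0.0977, Cct6a at 0.106, Hspa8 at 0.122, Ncl at 0.140 and Xpo6 at 0.143. Hsp90ab1 ranked 23, Hspa9 60 and Trap1 92, while Hspe1, the neighbour across the sequence shown above, ranked 2419 at 0.480. That rank rested on Foxo1-deficient replicate 3, without which Hspe1 ranked 34 at 0.174 (a setting chosen after seeing the data). With each library left out in turn, the rank of Hspa9 ran from 14 to 181. It was 14 at 0.150 without DZ replicate 3 and 181 at 0.227 without LZ replicate 2. The genes nearest to Hsp90aa1 were Cdk4 at 0.107, Aqr at 0.118, Wdr61 at 0.123, Ruvbl1 at 0.124 and Pak2 at 0.126, with Hspa8 at rank 9, Dnaja1 at 21 and Hsp90ab1 at 56. These ranks describe 9 libraries that share 3 groups.

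Myc, the growth regulator, was at 11.4, 12.8 and 8.38 FPKM in Foxo1-deficient libraries, 6.72, 8.06 and 4.35 FPKM in DZ and 21.4, 23.8 and 25.9 FPKM in LZ. Its LZ libraries were above all others, as for the 4 mitochondrial members and for Hspa8 and Hsp90ab1, but its DZ libraries were below every Foxo1-deficient library. Myc fell in DZ relative to LZ, with a log2 change of -1.77 and limma's adjusted p at 0.00641, and its difference between Foxo1-deficient and LZ was -1.07 at 0.0640.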

How the data were processed

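RNA from about 10000 sorted cells per library was sequenced after NEBNext Ultra preparation, per the labels' protocols. The deposited values are FPKM per gene from Cufflinks 2.1.1 after TopHat2 2.0.8 on mm9, per the submitters' processing notes, and the sources used here do not say whether strand was used. Of 23700 entries, 716 under 250 repeated symbols and 6 genes with a failed estimate were left out, leaving 22978. FPKM was taken as log2(FPKM + 1), so fold changes of low genes are understated. The 10004 genes that reached an FPKM of 1 in 3 or more of the 9 libraries entered 1 limma 3.58.1 fit (R 4.3.3) on group means with a trended prior, two-sided, with Benjamini-Hochberg adjustment over all of them and a threshold of 0.05. The fit was tested on simulated data whose changes were larger than most member changes. That test does not show how well smaller changes are found. Hspa8, Hsp90ab1 and Hsp90aa1 exceeded the upper bound of their own deposited confidence interval in 9 libraries and Hspe1 in 8, and using interval midpoints changed no member's call. Fragment numbers are implied from those intervals and cover counting error only. Members and lists were chosen with earlier results of these data known. Beside the members, the rule named genes past the threshold in a list (at most 6, otherwise the 4 of smallest p) or, with none, the 2 of highest mean FPKM. The stress and marker lists are given in part, and a few genes of the lists are not reported here. Hspa1a, Hspa1b, Hspb1, Dnajb1, Grpel1, Grpel2 and marker genes were named after their values were seen. The alternatives tried were another pseudocount, filter, scaling, fit or weighting, a replicate block and leaving out each library.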

Additional observations from a re-analysis of the deposited data

How the results depend on the processing

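Each of the 30 member results, 10 genes in 3 comparisons, was recomputed under 20 alternatives. In 19 of the 30 neither direction nor call changed under any of them, and in total 27 calls were lost, 9 were gained and 3 directions changed. Those 3 were Dnaja1 in Foxo1-deficient against DZ without Foxo1-deficient replicate 1, at 0.0269 (from -0.2205 to 0.0269 over all libraries left out), and Hsp90aa1 and Dnaja1 in DZ against LZ after median centring, at 0.0397 and 0.0444. The number of members past the threshold in Foxo1-deficient against LZ was 2. It was 1 with a pseudocount of 0.1, 1 with no filter, 4 with median centring, 3 with voom weights, 0 in a fit of the 2 groups alone, and 0 to 2 when each library was left out. In Foxo1-deficient against DZ it was 0, and 1 with quantile normalization, with median centring and with voom weights. In DZ against LZ it was 1, against 0 in a fit of the 2 groups alone, 2 with voom weights, and 0 to 1 when each library was left out. In the 5 other chaperone lists the count in Foxo1-deficient against LZ was 0, and 0 to 1 when each library was left out. In Foxo1-deficient against DZ it was 1, against 3 with quantile normalization, 5 with median centring, 2 with voom weights and 1 to 2 when each library was left out. In DZ against LZ it was 2, against 1 with a pseudocount of 0.1, 0 with no filter, 5 with voom weights and 0 to 2 when each library was left out. Fits with a library left out or with 2 groups hold fewer samples, and the cause of the other changes was not tested. The difference between the compartments kept its direction in all settings run, including interval midpoints and leaving out Hspe1, both chosen after seeing the data. Median centring and leaving out a library of the third group could not change that difference. Without Foxo1-deficient replicate 1, the remaining Foxo1-deficient libraries were at -1.46 and -1.88, on either side of the DZ mean of -1.67. The direction between Foxo1-deficient and DZ thus rested on little.

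The replicate block, with the replicate number as a term, gave 3 members in Foxo1-deficient against LZ, adding Hspe1 at an adjusted p of 0.0458 by limma, and 1, 2 and 1 genes of the other chaperone lists in Foxo1-deficient against LZ, Foxo1-deficient against DZ and DZ against LZ. Samples with the same number deviated together by correlations of only -0.067 to 0.075. The labels do not say what the number marks, and such correlations cannot show it. Whether same-numbered samples are paired was therefore not settled.

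With 3 libraries a group, differences that missed the threshold are not shown to be absent.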
